A study of Danio rerio with 15 samples.

Results

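The Rab genes examined here are the 69 entries, of 15937 in the deposited table, whose symbol begins with rab and a number. Of these, 59 encode Rab GTPases and 10 encode effectors or regulators that carry a Rab name, namely 6 of the rab11fip family, rab3gap1, rab3gap2, rab3il1 and rab3ip. All 69 passed the filter on low values, a normalised count of at least 10 in at least 3 libraries, and all were tested. A further 3 entries with a Rab symbol in capitals and 6 with another symbol but a human Rab counterpart were not counted as members.

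The libraries hold RNA of neutrophils sorted from zebrafish embryos on mpx:GFP, a green fluorescent reporter under the myeloperoxidase promoter. There were 5 groups of 3 libraries: wildtype, tet2-/-, tet3-/- and double mutant (tet2/3DM) embryos at 2 days post fertilization (dpf), and wildtype embryos at 1.5 dpf, the younger wildtype. The Tet enzymes oxidise 5-methylcytosine in DNA, and these mutations were carried by the whole embryo rather than by neutrophils alone. Whether replicates were separate clutches or separate sorts is not stated in the labels, so the p-values reflect only how far these libraries spread, and part of that spread may be technical.

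Rab GTPases are small membrane switches. Loaded with GTP by an exchange factor, each Rab recruits motors, tethers and other effectors to a particular membrane, and a GTPase-activating protein then turns it off. In neutrophils this machinery carries newly made proteins through the Golgi, drives maturation of the phagosome, recycles surface receptors and brings granules to the plasma membrane.

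All values below are normalised read counts, that is, reads scaled by the library's size factor, and they are not corrected for transcript length, so levels are compared between libraries and not between genes. Recovered totals ran from 12.18 to 15.05 M reads in the libraries of both wildtype groups and of tet2 mutants, from 27.19 to 31.06 M in double mutants, and were 5.64, 5.96 and 13.65 M in tet3 mutants. The transcripts of the targeted genes were not lost: tet2 counts were 1542, 1704 and 1893 in wildtype at 2 dpf and 1994, 1474 and 1462 in tet2 mutants, and tet3 counts were 1166, 1335 and 1620.4 and, in tet3 mutants, 2208, 2237 and 1532, so they do not check the genotype labels. The neutrophil genes mpx and lyz were counted at 25586 to 89852 and 68382 to 198732 over the 15 libraries. Several libraries stood apart. The first tet2 library had the lowest sum of 13 neutrophil markers, 156744, against 236435 to 300345 in wildtype at 2 dpf, and the highest sum of 17 neural markers, 36092 against 7141 to 8909. The first double mutant library had a sum of 16 muscle markers of 50545, against 1770 and 1851 in the others of its group. In bulk RNA of this kind, fewer cells of a type and less RNA per cell cannot be told apart.

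Most Rab transcripts lay close to their level in wildtype at 2 dpf in each of the other groups, as did most genes. In double mutants, 44 of 69 members (63.8%) lay within 0.5 of wildtype at 2 dpf on the log2 scale, against 61.4% of all genes tested. In tet3 mutants it was 49 members (71.0%) against 61.3% of all genes, and in tet2 mutants 53 members (76.8%) against 77.5%. Between wildtype at 1.5 and at 2 dpf it was 45 members (65.2%) against 51.4%. The members' median log2 change was 0.09 in double mutants, 0.13 in tet3 mutants, 0.07 in tet2 mutants and 0.16 in wildtype at 1.5 dpf, where the medians over all genes were 0.01, -0.04, -0.00 and -0.01. The 4 comparisons share the wildtype libraries at 2 dpf as controls, so their values stand side by side and are not independent.

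**Figure D1:**
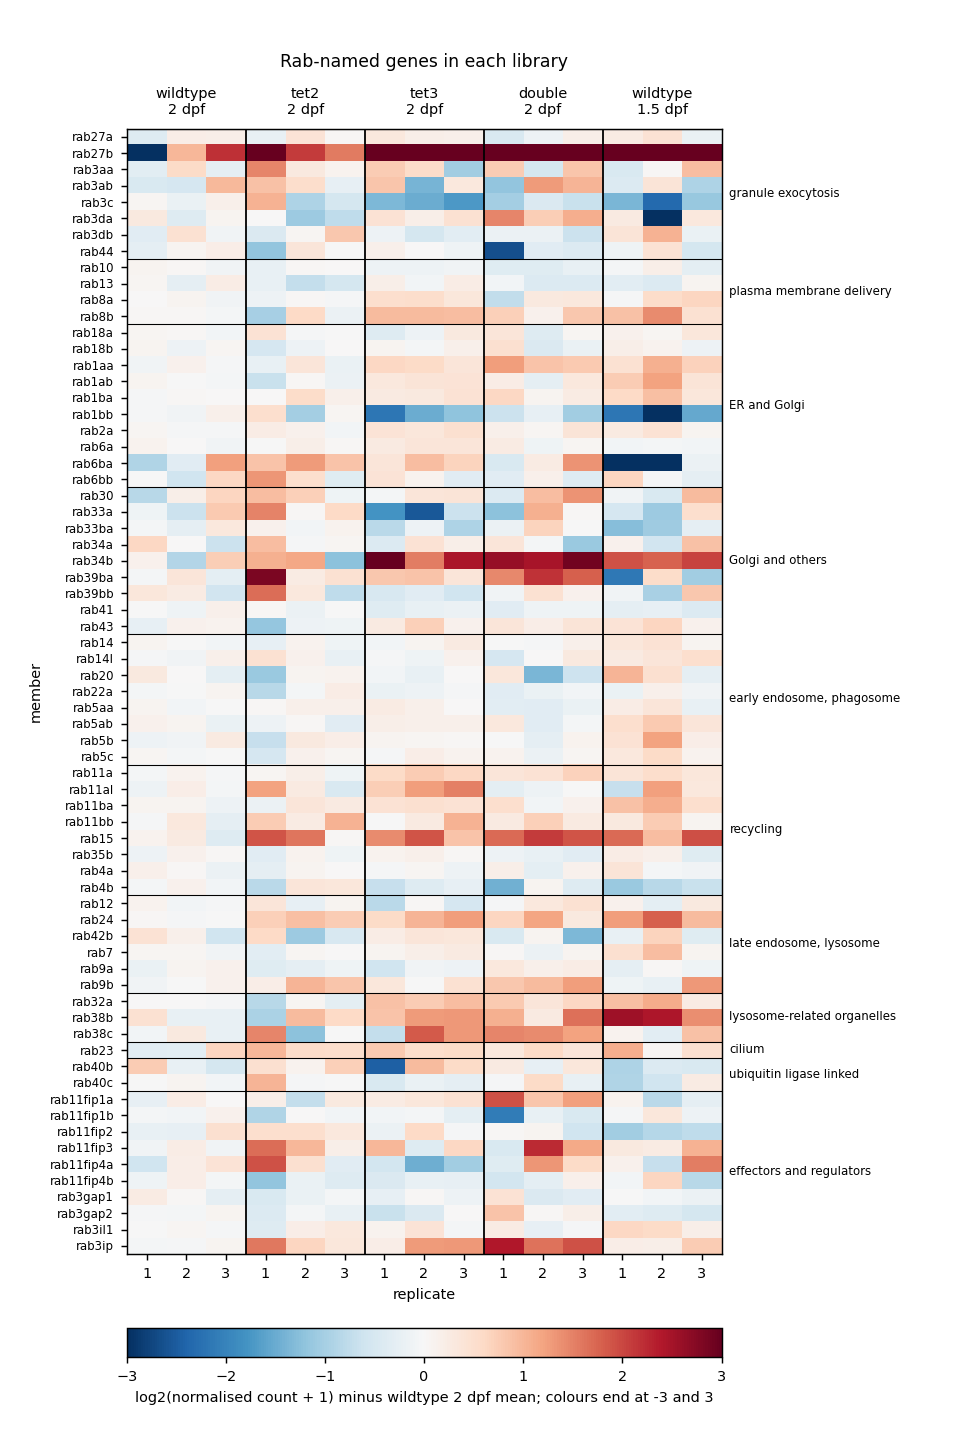
Level of each of the 69 members (vertical axis, in role classes) in each of the 15 libraries (horizontal axis, replicates 1 to 3 of each group), as log2(normalised count + 1) minus the wildtype mean at 2 dpf. Red is higher and blue lower, with colours ending at -3 and 3; rab27b and rab34b are red in all 3 double mutant libraries, and rab1bb is blue in all 3 tet3 libraries.

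The summed normalised counts of the 59 GTPases made up 0.245%, 0.252% and 0.250% of all counts in wildtype at 2 dpf. They made up 0.233%, 0.286% and 0.238% in tet2 mutants, 0.328%, 0.341% and 0.331% in tet3 mutants, 0.297%, 0.265% and 0.331% in double mutants, with 0.340%, 0.381% and 0.319% in the younger wildtype. By this share the tet3, double mutant and younger wildtype libraries all lay above the wildtype libraries at 2 dpf, and the tet2 libraries overlapped them. As sums not divided by the total, double mutants were at 45201, 41127 and 47712, and wildtype at 2 dpf at 42238, 42122 and 41138. By the sums the second double mutant library lay below all wildtype libraries at 2 dpf, while tet3 and younger wildtype libraries still lay above them. Heat-shock transcripts took a share of all counts that was lower in the same groups where the GTPase share was higher. The sum of 14 heat-shock genes was 7.61 to 8.68% of counts in wildtype at 2 dpf, 5.71 to 9.89% in tet2 mutants, 0.868 to 0.878% in tet3 mutants, 0.420 to 4.42% in double mutants and 0.157 to 0.246% in wildtype at 1.5 dpf, and its part in the result was not tested.

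The effect of losing both enzymes was read from double mutants against wildtype at 2 dpf. In double mutants, 7 of 69 members (10.1%) rose past an adjusted p of 0.05 and 0 fell, where 8.68% of all genes tested passed, 3.41% higher and 5.27% lower. The share of members called was therefore near that of all genes. The 7 were rab3ip, rab34b, rab27b, rab1aa, rab15, rab11fip1a and rab11a: 2 of 8 recycling Rabs, 2 of 10 effectors and regulators, and 1 each of the 10 endoplasmic reticulum (ER) and Golgi Rabs, the 9 other Golgi-associated Rabs and the 8 granule exocytosis Rabs. A further measure, in which the libraries of the groups need only not overlap, gave 17 members higher and 7 lower (24.6% and 10.1%), against 15.5% and 15.7% of all genes.

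In tet3 mutants, 5 of 69 members (7.25%) rose and 0 fell, where 7.27% of all genes passed, 3.69% higher and 3.58% lower. They were rab11a, rab34b, rab27b, rab32a and rab24. By non-overlap alone, 20 members were higher and 7 lower (29.0% and 10.1%), against 19.3% and 19.9% of all genes. In tet2 mutants 0 members passed, where 0.1% of all genes did, and by non-overlap 3 members were higher and 2 lower (4.35% and 2.90%, against 5.54% and 6.13% of all genes). By limma 4 members had an unadjusted p under 0.05 (5.80%, against 6.29% of all genes), and edgeR and DESeq2 on the recovered reads also called 0. A departure of the double mutant from the sum of the single mutant changes was not detected for any member: the interaction called 0 members by limma, edgeR or DESeq2, with 4 at an unadjusted p under 0.05 (5.80% against 8.13% of all genes) and 0.333% of all genes called.

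**Figure D2:**
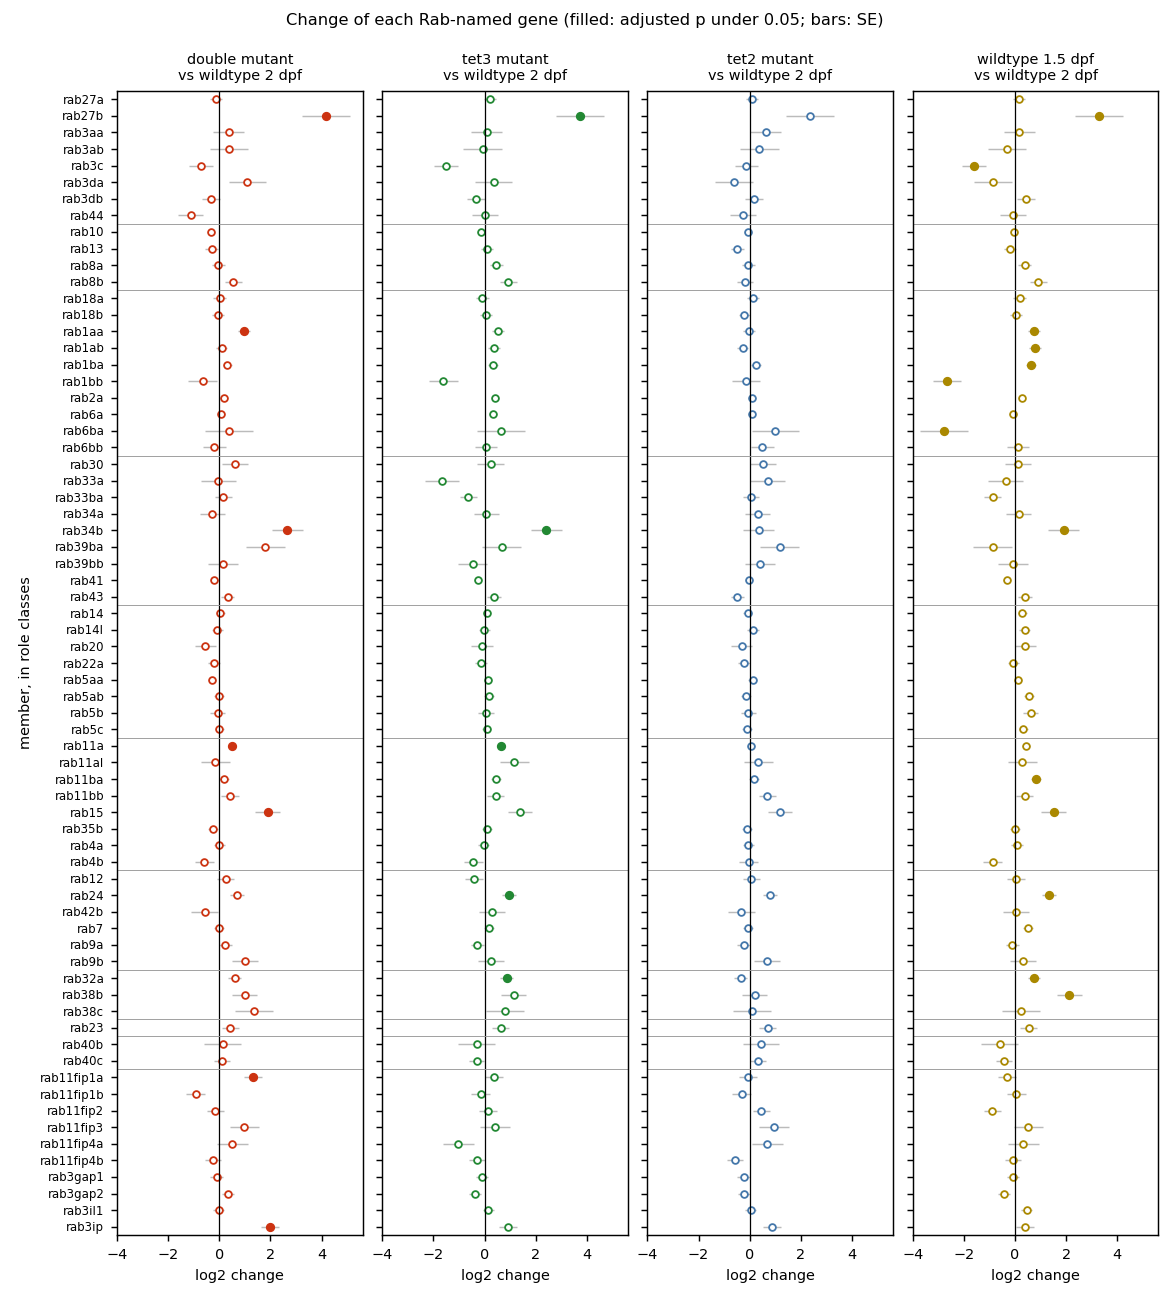
Log2 change of each of the 69 members against wildtype at 2 dpf (horizontal axis; points are limma estimates, bars their SE), in double, tet3 and tet2 mutants and in wildtype at 1.5 dpf. Filled points passed an adjusted p of 0.05: 7, 5, 0 and 13 members in the order of the panels.

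The Rabs of granule exocytosis were looked at one by one. Rab27a and Rab27b dock secretory granules at the plasma membrane, and in mammalian neutrophils Rab27a is needed for release of azurophilic granules. The rab27a count was 377, 566 and 552 in wildtype at 2 dpf, 421, 653 and 500.3 in tet2 mutants, 610.2, 552 and 545 in tet3 mutants, 359.6, 439 and 554 in double mutants, with 582, 668 and 427 in the younger wildtype. All 5 groups overlapped. The gene passed in none of the comparisons, with log2 fold change -0.14, SE 0.24, adjusted p = 0.78 in double mutants and log2 fold change 0.21, SE 0.24, adjusted p = 0.65 in tet3 mutants.

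Its paralogue rab27b rose in double mutants, tet3 mutants and wildtype at 1.5 dpf. The rab27b count was 0, 16.9 and 40.4 in wildtype at 2 dpf, the first of these libraries holding 0 reads, so that its level there was under the 3 reads taken as a floor (a normalised count of 4.24). It was 168, 145 and 177 in double mutants, 84.5, 191 and 107 in tet3 mutants, with 78.9, 109 and 76.7 in the younger wildtype. Every library of these 3 groups lay above every wildtype library at 2 dpf, and tet2 mutants, at 92.4, 37.8 and 25.7, overlapped them. The group mean was 8.55-fold that of wildtype at 2 dpf in double mutants and 6.67-fold in tet3 mutants. On the log2(value + 1) scale the change was larger because of the library at 0 (log2 fold change 4.18, SE 0.95, adjusted p = 0.012 in double mutants and log2 fold change 3.74, SE 0.95, adjusted p = 0.027 in tet3 mutants), and with a pseudocount of 5 the double mutant value was 3.30. In tet2 mutants it was 2.34, with adjusted p = 0.69. Pigment cell markers were also higher in the 3 groups where rab27b rose, and their sum in the tet2 libraries, 6055, 3042 and 2092, had the same order as rab27b, whereas the order of libraries differed in each of the other groups. The order in the tet2 libraries was not particular to pigment markers. Neural sums, 36092, 13458 and 6753, and erythroid sums, 27535, 12784 and 3854, had it too, and those of the other cell types did not.

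Because the rab27 paralogues come from the same library, rab27b was also expressed as a share of their joint reads, a value that does not depend on the size factor. The share was 0%, 2.90% and 6.81% in wildtype at 2 dpf (mean 3.24% ± 3.42, SD, n = 3). The first of these was 0 of 267 reads, where the floor of 3 reads would be a share of 1.12% and the exact 95% interval reaches 1.37%. It was 31.8%, 24.8% and 24.2% in double mutants (26.9% ± 4.21), 12.2%, 25.7% and 16.4% in tet3 mutants (18.1% ± 6.91), with 11.9%, 14.1% and 15.2% in the younger wildtype (13.7% ± 1.67). Each of these 3 groups lay wholly above wildtype at 2 dpf, with a two-sided exact permutation p = 0.1, the smallest that 3 libraries against 3 can give. In tet2 mutants the share was 17.99%, 5.47% and 4.89%, overlapping wildtype at 2 dpf (exact permutation p = 0.3). In the deepest of the double mutant libraries the exact 95% interval ran from 29.0% to 34.7%, which covers counting error only.

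**Figure D3:**
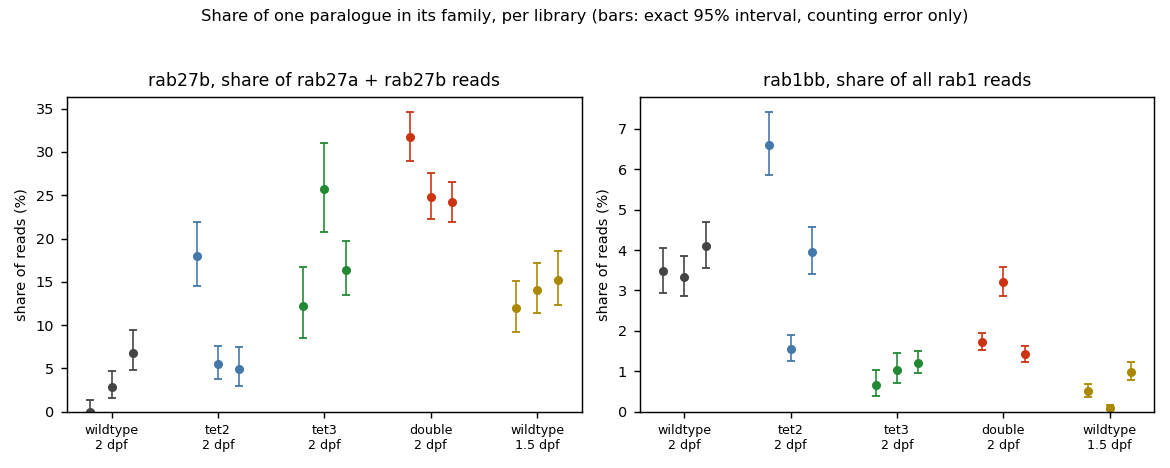
Share of rab27b in the reads of rab27a and rab27b (left) and of rab1bb in the reads of the 4 rab1 genes (right), in percent, for each of the 15 libraries by group; bars are exact 95% binomial intervals and cover counting error only. The rab27b share reaches 24.2 to 31.8% in double mutants and at most 6.81% in wildtype at 2 dpf.

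The Rab3 GTPases prime regulated secretory vesicles, chiefly in neurons and endocrine cells. rab3c counts were 133, 112 and 142 in wildtype at 2 dpf, 50.2, 45.1 and 38.3 in tet3 mutants, 62.7, 95.2 and 79.97 in double mutants, with 49.1, 24.7 and 57.8 in the younger wildtype. All 3 of these groups lay below wildtype at 2 dpf, and the fall passed in wildtype at 1.5 dpf (log2 fold change -1.61, SE 0.46, adjusted p = 0.021) but not in tet3 mutants (log2 fold change -1.51, SE 0.46, adjusted p = 0.056) or double mutants (log2 fold change -0.71, SE 0.46, adjusted p = 0.39). In tet2 mutants rab3c was 265, 67.3 and 88.7, with its highest value of all 15 libraries in the library that also had the highest neural marker sum. The other rab3 genes were low or scattered: rab3aa ranged from 16.9 to 99.6, rab3ab from 10.03 to 69.1, rab3da from 2.60 to 87.2 and rab3db from 123 to 401, and none passed in the comparisons with wildtype at 2 dpf. The gene rab44 encodes a large Rab that in mice acts in mast cell degranulation. Its count was 1391, 1789 and 1930.3 in wildtype at 2 dpf and 270.5, 1335 and 1274 in double mutants, where the first library, the one with high muscle markers, was the lowest of all 15, and it did not pass (log2 fold change -1.13, SE 0.50, adjusted p = 0.19).

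Among exchange factors and effectors, rab3ip gave the smallest p-value of all members in double mutants. Its mammalian counterpart, Rabin8, loads Rab8 with GTP and is itself delivered by Rab11 vesicles. The rab3ip count was 171, 174 and 189 in wildtype at 2 dpf and 949, 555 and 675 in double mutants, a 4.09-fold difference of means with no overlap (log2 fold change 1.99, SE 0.34, adjusted p = 0.0017). It was 538, 279.9 and 226 in tet2 mutants, with 203, 429 and 437 in tet3 mutants. Both single mutant groups also lay wholly above wildtype at 2 dpf, by 1.96-fold and 2.00-fold in their means, without passing (adjusted p = 0.68 and 0.12). In wildtype at 1.5 dpf it was 203, 202 and 304, also above all wildtype libraries at 2 dpf and below all double mutant libraries. Double mutants also passed against these younger embryos (log2 fold change 1.61, SE 0.34, adjusted p = 0.0061), where genotype and stage differ together.

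The Rab11 effector rab11fip1a, of a family that links Rab11 vesicles to their cargo and motors, was 91.9, 127 and 109 in wildtype at 2 dpf and 412, 193 and 257 in double mutants. The groups did not overlap, and the first double mutant library was the highest (log2 fold change 1.32, SE 0.35, adjusted p = 0.026). In tet3 mutants the count was 129, 138 and 149.8 and in wildtype at 1.5 dpf 118, 61.2 and 89.9. Double mutants were also above the younger embryos (log2 fold change 1.65, SE 0.35, adjusted p = 0.0059), which differ from them in stage as well as genotype. Its paralogue rab11fip1b, named here after its values were seen, was 869, 856 and 988 in wildtype at 2 dpf and 209, 772 and 662 in double mutants. All double mutant libraries lay below wildtype, with the first far below the other two, and the difference did not pass (log2 fold change -0.93, SE 0.37, adjusted p = 0.14). The other effectors and regulators, including the Rab3 GTPase-activating subunits rab3gap1 and rab3gap2 and the exchange factor rab3il1, did not pass against wildtype at 2 dpf in any group.

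Rab11 itself marks the recycling endosome. rab11a counts were 3027, 3386 and 3110.3 in wildtype at 2 dpf, 3321, 3585 and 2885 in tet2 mutants, 4745, 5348 and 4883 in tet3 mutants, 4108, 4308 and 5157 in double mutants, with 4149.8, 4549 and 4002 in the younger wildtype. Tet3 mutants, double mutants and wildtype at 1.5 dpf all lay wholly above both wildtype at 2 dpf and tet2 mutants. Wildtype at 1.5 dpf, with a mean 1.33-fold that at 2 dpf, did not pass. The means of tet3 and double mutants were 1.57-fold and 1.43-fold that of wildtype at 2 dpf, small differences (log2 fold change 0.65, SE 0.15, adjusted p = 0.017 in tet3 mutants, log2 fold change 0.51, SE 0.15, adjusted p = 0.049 in double mutants). Under 13 other settings of the fit the tet3 call was kept in 11 and the double mutant call in 7, the latter being lost with edgeR. rab11al, whose human counterpart is listed as RAB11A like that of rab11a, was at 14.2 to 68.7 over all libraries. Whether it shares reads with rab11a was not tested. rab11ba was 1267, 1262 and 1072 in wildtype at 2 dpf and 2189, 2541 and 1700.4 in wildtype at 1.5 dpf, and it rose in the latter alone among these comparisons (log2 fold change 0.82, SE 0.20, adjusted p = 0.0089); in tet3 mutants, at 1619, 1667 and 1606, it did not pass (log2 fold change 0.45, SE 0.20, adjusted p = 0.19).

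rab15, which in mammals acts between early and recycling endosomes, was 26.9, 30.4 and 18.99 in wildtype at 2 dpf and 82.8, 109 and 94.3 in double mutants, with no overlap (log2 fold change 1.88, SE 0.48, adjusted p = 0.022). It was 68.7, 95.3 and 46.2 in tet3 mutants and 94.8, 77.9 and 25.7 in tet2 mutants, and passed in neither (adjusted p = 0.091 and 0.69). At 1.5 dpf rab15 was 82.8, 48.2 and 97.5, above all wildtype libraries at 2 dpf, and it passed (log2 fold change 1.51, adjusted p = 0.035). The remaining recycling Rabs, rab4a, rab4b, rab11bb and rab35b, did not pass against wildtype at 2 dpf in any group. rab4b, named after its values were seen, was lower at 1.5 dpf, at 87.9, 108 and 120.2 against 185, 209.6 and 183, without passing (log2 fold change -0.87, SE 0.38, adjusted p = 0.11).

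**Figure D4:**
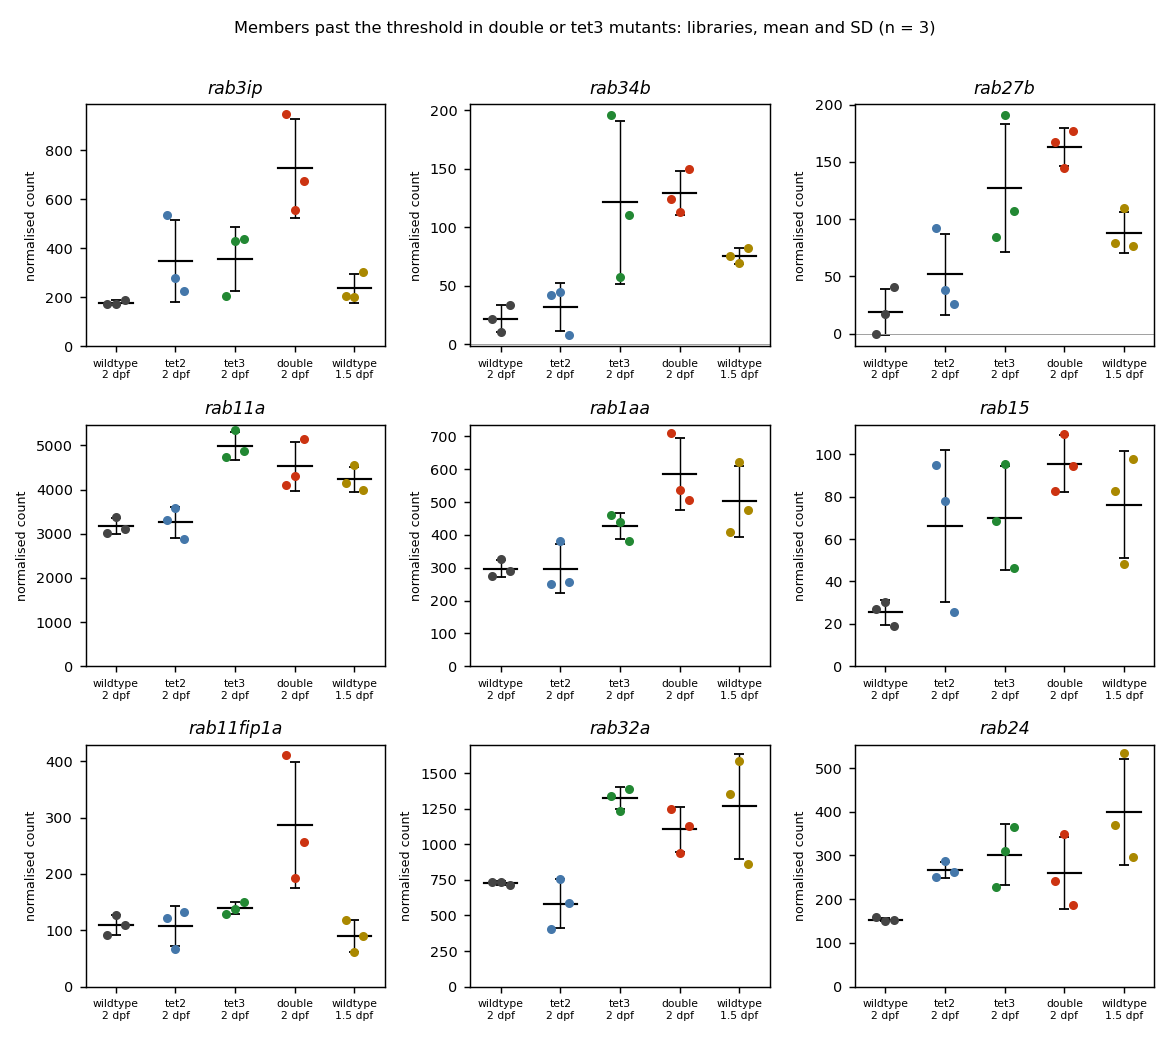
Normalised counts of the 9 members past an adjusted p of 0.05 in double or tet3 mutants against wildtype at 2 dpf (vertical axes, each starting at 0 or below), with every library as a point and mean ± SD as bars (n = 3 per group). For rab27b the lowest double mutant library, at 145, lies above the highest wildtype library at 2 dpf, at 40.4.

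Of the Rabs that move cargo from the ER through the Golgi, 1 passed in a mutant against wildtype at 2 dpf. Rab1 proteins govern ER-to-Golgi transport, and the table holds 4 zebrafish genes for them. rab1aa was 276, 326 and 289.7 in wildtype at 2 dpf, 459.7, 439 and 382 in tet3 mutants, 711, 538 and 508 in double mutants, with 409, 621 and 477 in the younger wildtype. The latter 3 groups lay wholly above wildtype at 2 dpf, and the rise passed in double mutants (log2 fold change 0.97, SE 0.23, adjusted p = 0.013) and at 1.5 dpf (log2 fold change 0.74, SE 0.23, adjusted p = 0.029), not in tet3 mutants (adjusted p = 0.18).

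The fourth gene, rab1bb, went the other way. It was 213, 202 and 241 in wildtype at 2 dpf and 47.8, 10.4 and 74.8 in wildtype at 1.5 dpf, 0.203 times the mean at 2 dpf (log2 fold change -2.65, SE 0.56, adjusted p = 0.0041). In tet3 mutants it was 47.6, 77.7 and 94.6 and in double mutants 138, 184 and 105. Both lay below wildtype at 2 dpf with no overlap, but neither passed (log2 fold change -1.62, SE 0.56, adjusted p = 0.093 and log2 fold change -0.65, SE 0.56, adjusted p = 0.54). As a share of all rab1 reads it was 3.47%, 3.33% and 4.10% in wildtype at 2 dpf, 0.651%, 1.03% and 1.21% in tet3 mutants, 1.73%, 3.21% and 1.42% in double mutants, with 0.507%, 0.0828% and 0.981% in the younger wildtype. These 3 groups lay below wildtype at 2 dpf, each with exact permutation p = 0.1, the smallest possible, and the tet2 share, 6.61%, 1.55% and 3.96%, straddled it (exact permutation p = 0.8). The joint rab1 count averaged 6032 in wildtype at 2 dpf, 7560 in tet3 mutants, 7028 in double mutants and 9885 at 1.5 dpf. The second double mutant library, at 5737, was below all wildtype libraries at 2 dpf. The share thus also reflects the counts of the other rab1 genes. Reads of the paralogues may have been divided between them in counting, which makes such shares less certain than their intervals.

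Against wildtype at 2 dpf, the other genes of this class passed in the younger wildtype or in no group. rab1ab was 3871, 3669 and 3526 in wildtype at 2 dpf and 6223, 8542 and 4780.3 at 1.5 dpf (log2 fold change 0.78, SE 0.22, adjusted p = 0.022). rab1ba was 1791, 1864 and 1828 at 2 dpf against 2766, 3407 and 2296 at 1.5 dpf (log2 fold change 0.61, SE 0.19, adjusted p = 0.034). rab6ba, a Golgi Rab with low counts here, was 12.7, 19.2 and 59.4 at 2 dpf and 1.29, 0 and 21.8 at 1.5 dpf, where it was lower although the groups overlapped (log2 fold change -2.77, SE 0.93, adjusted p = 0.044). The first and second libraries at 1.5 dpf were under the floor of 3 reads (normalised counts of 3.88 and 3.91). The rab6ba call was kept in 1 of 6 fits with a library left out and in 5 of 13 other settings. rab2a, rab6a, rab6bb, rab18a and rab18b passed in none of the 4 comparisons; in tet3 mutants rab2a, named after its values were seen, was 3852, 3703 and 4028 against 3045, 2855 and 2828 in wildtype at 2 dpf, with no overlap (log2 fold change 0.41, SE 0.16, adjusted p = 0.12).

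Among the 9 other Golgi-associated Rabs, rab34b alone passed against wildtype at 2 dpf. Its mammalian counterpart, Rab34, acts in lysosome positioning and in the formation of cilia. The rab34b count was 21.2, 10.1 and 33.2 in wildtype at 2 dpf, 195, 57.7 and 110.3 in tet3 mutants, 124, 113 and 149.9 in double mutants, with 75.00, 69.00 and 82.4 in the younger wildtype. All 9 libraries of the latter groups lay above the wildtype libraries at 2 dpf, while tet2 mutants, at 41.99, 44.9 and 7.72, overlapped them. The change passed in double mutants (log2 fold change 2.66, SE 0.61, adjusted p = 0.012), tet3 mutants (log2 fold change 2.41, SE 0.61, adjusted p = 0.025) and at 1.5 dpf (log2 fold change 1.90, SE 0.61, adjusted p = 0.036). Its paralogue rab34a ranged from 30.2 to 127 over all libraries and passed nowhere. rab39ba was 14.1, 19.2 and 11.9 in wildtype at 2 dpf and 41.6, 69.7 and 54.02 in double mutants with no overlap, and it did not pass (log2 fold change 1.80, SE 0.76, adjusted p = 0.17).

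Delivery to the plasma membrane depends on Rab8, Rab10 and Rab13, and 0 of these 4 genes passed against wildtype at 2 dpf. rab8b came nearest. It was 1747, 1761 and 1645 in wildtype at 2 dpf, 3310.1, 3295 and 3238 in tet3 mutants and 2818, 1890.4 and 3003 in double mutants, wholly above wildtype in both. The tet3 mean was 1.91-fold that of wildtype (log2 fold change 0.93, SE 0.32, adjusted p = 0.086), and the spread shared by all groups includes tet2 mutants at 864, 2604 and 1518. In wildtype at 1.5 dpf it was 3169.6, 4590.4 and 2340.4 (log2 fold change 0.92, SE 0.32, adjusted p = 0.051). rab10 was 3235, 3130.3 and 2853 in wildtype at 2 dpf and 2370.4, 2404 and 2631 in double mutants, lower in each library without passing (log2 fold change -0.32, SE 0.15, adjusted p = 0.24).

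The Rabs of early endosomes and phagosomes gave no call. Rab5 directs fusion of early endosomes, and Rab14, Rab20 and Rab22a act on the maturing phagosome. None of the 8 genes passed in any comparison, and their log2 changes ran from -0.55 to 0.04 in double mutants and from -0.12 to 0.16 in tet3 mutants. rab5aa, for instance, was 2339.6, 2116 and 2218 in wildtype at 2 dpf and 1782, 1765 and 1923 in double mutants (log2 fold change -0.29, SE 0.16, adjusted p = 0.32). rab5c, named after its values were seen, was 4060.1, 3743 and 3865 in wildtype at 2 dpf against 4152, 3461 and 4079 in double mutants (log2 fold change -0.00, SE 0.18, adjusted p = 1).

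Of 6 Rabs of late endosomes, lysosomes and autophagy, rab24 changed. Rab24 is linked to autophagosome clearance in mammals. Its count was 158, 149.9 and 152 in wildtype at 2 dpf, 251, 287 and 262 in tet2 mutants, 227, 311 and 366 in tet3 mutants, 242, 349 and 187 in double mutants, with 369, 534 and 296 in the younger wildtype. All 12 other libraries lay above the 3 wildtype libraries at 2 dpf, whose spread was narrow. The rise passed in tet3 mutants (log2 fold change 0.94, SE 0.27, adjusted p = 0.045) and at 1.5 dpf (log2 fold change 1.33, SE 0.27, adjusted p = 0.0032), and not in double mutants (log2 fold change 0.71, SE 0.27, adjusted p = 0.12) or tet2 mutants (log2 fold change 0.79, SE 0.27, adjusted p = 0.57). rab7, the late endosome Rab, named after its values were seen, was 2745, 2769 and 2447 in wildtype at 2 dpf and 2699, 2337 and 2797 in double mutants and did not pass (log2 fold change -0.03, SE 0.19, adjusted p = 0.96).

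Rab32 and Rab38 sort enzymes into lysosome-related organelles, of which the melanosome is the best known. rab32a was 735, 736 and 712 in wildtype at 2 dpf, 1342, 1239 and 1392 in tet3 mutants, 1252, 938 and 1127 in double mutants, with 1355, 1587 and 859.7 in the younger wildtype, with no overlap with wildtype at 2 dpf in any of these. It passed in tet3 mutants (log2 fold change 0.86, SE 0.24, adjusted p = 0.039) and at 1.5 dpf (log2 fold change 0.75, SE 0.24, adjusted p = 0.034), and not in double mutants (log2 fold change 0.59, SE 0.24, adjusted p = 0.14). rab38b was 72.1, 43.9 and 43.9 at 2 dpf and 306, 283 and 138 at 1.5 dpf, 4.55-fold higher in the mean (log2 fold change 2.12, SE 0.49, adjusted p = 0.0064). It was 95.1, 128 and 128 in tet3 mutants and 109.7, 62.3 and 165 in double mutants, and did not pass in either (adjusted p = 0.17 and 0.24).

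Pigment cell markers moved with the same groups. Of 16 such markers tested, 7 rose in double mutants, 6 in tet3 mutants, 0 in tet2 mutants and 13 in wildtype at 1.5 dpf, and 0 fell. tyrp1a, oca2 and ednrba were each listed at 0 in 1 library, of a tet3 mutant, wildtype at 2 dpf and a tet2 mutant in that order, and the other 13 in none. The sum of the 16 ran from 2057 to 2112 in wildtype at 2 dpf, 2092 to 6055 in tet2 mutants, 7167 to 8645 in tet3 mutants, 7466 to 11961 in double mutants and 8269 to 10845 in wildtype at 1.5 dpf. In the first tet2 library the pigment sum was 6055 and the counts of the melanocyte enzymes dct and tyrp1b were 574 and 1008, against 14.6 to 32.1 and 18.4 to 69.9 in wildtype at 2 dpf, while rab32a and rab38b, at 407 and 26.4, were at their lowest of all 15 libraries. rab38c, of the same class, was higher there, at 51.6 against 7.09 and 18.004 in the other tet2 libraries and 15.4 to 22.5 in wildtype at 2 dpf. Markers of other cell types also passed against wildtype at 2 dpf. In double mutants 9 of 20 endothelial markers fell and 0 rose, and 6 of 16 macrophage markers fell and 1 rose. Also in double mutants, 3 of 16 muscle and 1 of 12 erythroid markers fell, and 2 of 17 neural and 2 of 14 epidermal markers rose. In tet3 mutants 6 endothelial markers rose and 0 fell, and 7 of 16 muscle markers fell and 0 rose. Of 14 epidermal markers, 3 rose and 1 fell in tet3 mutants. The part of pigment cells, or of these other cell types, in the rises of rab32a, rab38b and rab27b was not tested.

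The comparison of wildtype embryos by stage gave the most calls. At 1.5 dpf, 10 of 69 members were higher and 3 lower than at 2 dpf (18.8%), where 20.8% of all genes passed, 9.18% higher and 11.6% lower. The higher genes were rab24, rab38b, rab11ba, rab1ab, rab27b, rab1aa, rab1ba, rab32a, rab15 and rab34b, and the lower ones rab1bb, rab3c and rab6ba. By non-overlap 20 members were higher and 6 lower (29.0% and 8.70%), against 20.9% and 22.4% of all genes. The second library at 1.5 dpf was the highest of all 15 for 19 members (27.5%, against 11.9% of all genes), and it also had the highest neutrophil marker sum, 567259. All 12 erythroid markers tested were higher at 1.5 dpf. Of endothelial markers 6 were higher and 1 lower, and of neural markers 3 were higher and 6 lower. Of neutrophil markers 2 were higher and 1 lower, and of epidermal markers 1 was higher and 2 lower. Macrophage markers had 4 lower and muscle markers 3 lower, with 0 higher in either list. The part of these cell types in the stage calls was not tested.

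Mutants were also set against the younger wildtype, which uses other controls. The mutants were at 2 dpf, so genotype and stage differ together there and cannot be told apart. Double mutants had 7 members higher and 1 lower than wildtype at 1.5 dpf (11.6%), where 14.2% of all genes passed, 7.78% higher and 6.39% lower. The higher ones were rab11fip1a, rab3ip, rab1bb (log2 fold change 2.00, SE 0.56, adjusted p = 0.026), rab39ba (log2 fold change 2.68, SE 0.76, adjusted p = 0.028), rab6ba (log2 fold change 3.15, SE 0.93, adjusted p = 0.033), rab3gap2 (log2 fold change 0.77, SE 0.23, adjusted p = 0.038) and rab33ba (log2 fold change 1.03, SE 0.32, adjusted p = 0.042; outside the rule for named genes). rab11ba was lower (log2 fold change -0.64, SE 0.20, adjusted p = 0.041). Tet3 mutants had 1 member higher, rab6ba (log2 fold change 3.42, SE 0.93, adjusted p = 0.028), and 0 lower, where 9.91% of all genes passed, 6.13% higher and 3.78% lower, and the members' median absolute log2 difference was 0.24 against 0.39 over all genes. For rab6ba the first and second younger wildtype libraries were under the floor of 3 reads, as given above, which can widen its log2 changes in both comparisons. The count of 8 became 3 without the first or second library at 1.5 dpf or the third double mutant library, 4 without the second double mutant library and 11 without the third at 1.5 dpf. The tet3 count of 1 became 0 without any of the libraries compared other than the third at 1.5 dpf. rab27b did not pass between mutants and younger wildtype (log2 fold change 0.89, SE 0.95, adjusted p = 0.58 in double mutants and log2 fold change 0.46, SE 0.95, adjusted p = 0.81 in tet3 mutants).

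The 35 members outside the rule for named genes passed in none of the comparisons with wildtype at 2 dpf. Their log2 changes ran from -0.93 to 1.36 in double mutants, from -1.66 to 1.17 in tet3 mutants, from -0.59 to 0.95 in tet2 mutants and from -0.89 to 0.62 in wildtype at 1.5 dpf, with smallest adjusted p-values of 0.14, 0.12, 0.81 and 0.054. The first tet2 library was the highest of all 15 for 11 members and the lowest for 16 (23.19%, against 15.89% of all genes). The 11 were rab1bb, rab3aa, rab3c, rab6bb, rab11fip4a, rab18a, rab33a, rab34a, rab39ba, rab39bb and rab40c, and they were 15.9% of members, as were 15.9% of all genes highest there. In that library rab39ba, for instance, was 112 against 17.7 and 20.6 in the others of its group. The part of neural RNA in this, with a marker sum of 36092 there against 13458 and 6753, was not tested.

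Rabs act through exchange factors, GTPase-activating proteins, motors and tethers, and 96 such genes outside the members were tested as a companion list. In double mutants 1 rose and 5 fell, in tet3 mutants 2 rose and 3 fell, in tet2 mutants 0 passed, and in wildtype at 1.5 dpf 4 rose and 14 fell. The shares called, 6.25%, 5.21%, 0% and 18.8%, were near or below those of all genes, 8.68%, 7.27%, 0.1% and 20.8%. The list's median log2 change was -0.04 in double mutants and -0.03 in tet3 mutants, against 0.01 and -0.04 over all genes.

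The motor gene myo5b gave the smallest p-value of the list in double and tet3 mutants. Myosin Vb carries Rab11 and Rab8 vesicles along actin. Its count was 119, 122 and 75.98 in wildtype at 2 dpf, 208, 163 and 70.7 in tet2 mutants, 608, 509 and 485 in tet3 mutants, 655, 619.9 and 760.5 in double mutants, with 215, 260.4 and 234 in the younger wildtype. Tet3 and double mutants lay wholly above the other 3 groups, with means 5.06-fold and 6.43-fold that of wildtype at 2 dpf (log2 fold change 2.35, SE 0.32, adjusted p = 0.00065 and log2 fold change 2.70, SE 0.32, adjusted p = 9.4e-05). Wildtype at 1.5 dpf was itself above wildtype at 2 dpf (log2 fold change 1.18, SE 0.32, adjusted p = 0.016). Both mutant groups exceeded wildtype at 1.5 dpf in turn (log2 fold change 1.52, SE 0.32, adjusted p = 0.0058 in double mutants and log2 fold change 1.17, SE 0.32, adjusted p = 0.029 in tet3 mutants). Genotype and stage differ together in those comparisons with younger embryos.

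The genes rin2 and rin3, whose mammalian counterparts are exchange factors for the Rab5 family, fell in tet3 and double mutants. rin2 was 1613, 1614 and 1848 in wildtype at 2 dpf, 581, 557 and 432 in tet3 mutants, 479, 462 and 513 in double mutants, with 318, 476 and 466 in the younger wildtype, means of 0.309, 0.287 and 0.248 times that of wildtype at 2 dpf (log2 fold change -1.70, SE 0.24, adjusted p = 0.00071; log2 fold change -1.80, SE 0.24, adjusted p = 0.0002; log2 fold change -2.03, SE 0.24, adjusted p = 4.8e-05). rin3 was 1752, 1961 and 2155 in wildtype at 2 dpf against 988, 1211 and 999 in tet3 mutants (log2 fold change -0.88, SE 0.19, adjusted p = 0.013) and 1155, 881 and 935 in double mutants (log2 fold change -0.99, SE 0.19, adjusted p = 0.0042), with no overlap. At 1.5 dpf rin3 was also lower, at 1218, 1558 and 1214 (log2 fold change -0.56, SE 0.19, adjusted p = 0.049). That stage call was kept in 1 of 6 fits with a library left out. In tet2 mutants rin2 was 839.9, 884 and 1572 and rin3 was 1056, 1248 and 1629, below all wildtype libraries at 2 dpf without passing (adjusted p = 0.59 and 0.54). No rab5 gene passed in any comparison, as given above.

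The remaining called companions were ehd4, mical1 and tbc1d22b, which fell in double mutants, and, in tet3 mutants, optn, which rose, and evi5b, which fell. ehd4, an endosomal membrane-remodelling ATPase, was 2099, 2160.1 and 2199 in wildtype at 2 dpf but 979, 919 and 1113 in double mutants (log2 fold change -1.10, SE 0.24, adjusted p = 0.0078). mical1, a Rab-binding actin oxidase, was 359, 492 and 343 in wildtype at 2 dpf against 115, 237 and 225 in double mutants (log2 fold change -1.10, SE 0.30, adjusted p = 0.033). tbc1d22b, of the family of Rab GTPase-activating proteins, was 168, 126 and 138 against 43.6, 56.1 and 35.5 (log2 fold change -1.67, SE 0.42, adjusted p = 0.021). optn, a Rab8 effector, was 353, 332 and 362 in wildtype at 2 dpf and 1112, 1023 and 1069 in tet3 mutants (log2 fold change 1.61, SE 0.40, adjusted p = 0.025). evi5b, also of the GTPase-activating family, was 619, 651 and 816 against 462, 419 and 374 (log2 fold change -0.73, SE 0.21, adjusted p = 0.043). In double mutants optn was 1063, 522 and 587 and evi5b was 474, 513 and 379. Neither overlapped wildtype at 2 dpf there, and neither passed (adjusted p = 0.15 and 0.079). In tet3 mutants ehd4, at 1728, 1735 and 1218, lay below wildtype at 2 dpf without passing (adjusted p = 0.24), while mical1 and tbc1d22b overlapped it. In wildtype at 1.5 dpf optn was also higher than at 2 dpf (log2 fold change 1.96, SE 0.40, adjusted p = 0.0036). Also lower there were evi5b (log2 fold change -1.13, SE 0.21, adjusted p = 0.0014), tbc1d22b (log2 fold change -1.54, SE 0.42, adjusted p = 0.018) and ehd4 (log2 fold change -0.69, SE 0.24, adjusted p = 0.048). Of 6 fits with a library left out, these stage calls were kept in 6 for optn and evi5b, 2 for tbc1d22b and 0 for ehd4. mical1 did not pass at that stage (log2 fold change -0.54, SE 0.30, adjusted p = 0.22). With 1 of the 6 libraries compared left out in turn, ehd4 and rin3 passed in all 6 double mutant fits, mical1 in 2 and tbc1d22b in 1. In the 6 tet3 fits rin3 passed in 3, and optn and evi5b in 0.

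**Figure D5:**
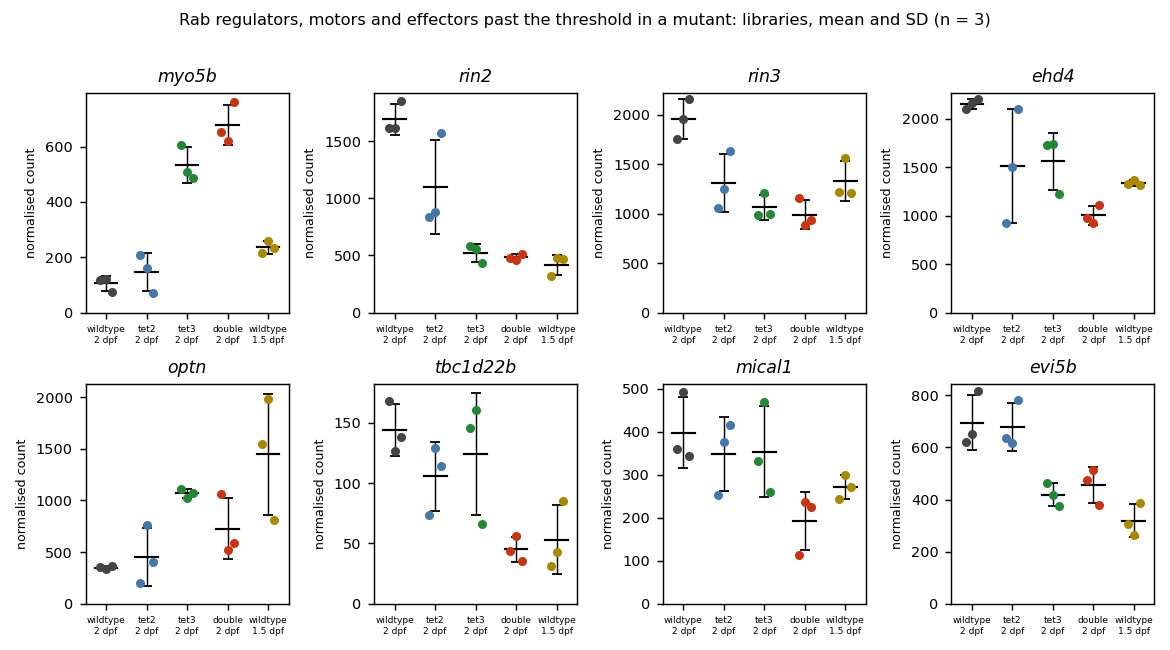
Normalised counts of the 8 companion genes past an adjusted p of 0.05 in a mutant (vertical axes, starting at 0), with every library as a point and mean ± SD as bars (n = 3 per group). The double mutant libraries of myo5b run from 619.9 to 760.5, above all libraries of the tet2 and both wildtype groups.

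How far single libraries decided the calls was checked by leaving out each in turn. In double mutants, rab3ip and rab27b passed in all 6 such fits, rab34b in 4, rab1aa in 3, rab15 in 2, rab11fip1a in 1 and rab11a in 0. The count of 7 became 3 without the first or the third wildtype library or the third double mutant library, 4 without the second wildtype or the first double mutant library, and 6 without the second double mutant library. In tet3 mutants, rab27b passed in 3 of 6 fits, rab11a and rab34b in 2, and rab32a and rab24 in 0, and the count of 5 became 0 without the first tet3 library and 1 or 2 without any one of the other libraries compared. Of the stage calls, rab24, rab38b, rab11ba and rab1bb passed in all 6 fits, and the count of 13 became 5 or 6 without any one of the libraries compared other than the third at 1.5 dpf, and 15 without that one. myo5b and rin2 passed in all 6 in both double and tet3 mutants.

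When the heat-shock gene hsp70l, which follows the groups, was added to the fit as a covariate, 0 of the members' calls against wildtype at 2 dpf remained. Because hsp70l separates the groups in which members were called, the covariate itself makes their changes less certain. The loss of calls is therefore no result about the Rabs, and the share of all genes still called is not given. In that fit the log2 change of rab27b in double mutants was 4.09 with adjusted p = 0.27, and that of rab3ip 1.31 with adjusted p = 0.29. myo5b and rin2 still passed in double mutants (log2 change 2.44 and -1.65, adjusted p = 0.033 and 0.048), but not in tet3 mutants (log2 change 2.02 and -1.51, adjusted p = 0.16 and 0.15) or at 1.5 dpf (log2 change 0.76 and -1.78, adjusted p = 0.75 and 0.18). hsp70l was 367872, 426506 and 396088 in wildtype at 2 dpf, 305594, 208418 and 564696 in tet2 mutants, 17684, 17123 and 17787 in tet3 mutants, 5505, 156506 and 41711 in double mutants, with 7289.7, 10181 and 4965 in the younger wildtype. In the second double mutant library, whose hsp70l count was the highest of its group, rab27b was 145, rab34b 113 and rab3ip 555, each the lowest of its group and each above every wildtype library at 2 dpf. The other members called in double mutants did not all share this order. There rab11fip1a, at 193, was also the lowest of its group, rab15, at 109, was the highest, and rab1aa and rab11a were neither. A relation to hsp70l within the group was not tested. The labels name no batch, and in the double mutant, tet3 and 1.5 dpf comparisons, where hsp70l separates the groups completely, genotype or stage and heat-shock state cannot be told apart.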

How the data were processed

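RNA of sorted neutrophils was sequenced in 15 libraries, grouped by title. The kit, TruSeq RNA version 2 per the labels' protocols, keeps no strand information, which leaves reads of overlapping and antisense genes unresolved. The submitters' processing notes name TopHat, Cufflinks and DESeq2; the genome build, as also the annotation and any version, is not given in the sources used here. Deposited values are a signal per gene, namely counts that the authors scaled by size factors: on division by the step of its library, 100% of values came out as whole reads (tolerance 0.01). Every per-sample column matched a library. Recovered totals ran from 5.64 to 31.06 M reads.

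limma 3.58.1 (R 4.3.3), with robust moderation and a mean-variance trend, was fitted to log2(value + 1) with 5 group means; the added 1 draws the changes of low genes towards 0, while a library at or near 0 can widen the difference between means of logs. The filter, a value of 10 or more in 3 or more libraries, left 15933 genes. P-values are two-sided, adjusted over all these genes by Benjamini-Hochberg, with a threshold of 0.05. edgeR 4.0.16 and DESeq2 1.42.0 on the recovered reads were alternatives, beside other pseudocounts, filters, scalings, library weights, a replicate block, thinned reads, an hsp70l covariate and each library left out. The steps were tested on simulated data. Shares of reads have exact (Clopper-Pearson) 95% intervals, and 3 reads were the floor; both cover counting error only. Replicates differed by at least 3.94 times sampling noise, so none is a copy of another's reads. The ratio cannot tell repeat preparations of the same RNA from separate pools of cells. That lowest value was between the first and second tet3 libraries, and the next lowest within a group was 8.53. Whether those tet3 libraries came from separate pools of cells is not stated in the labels.

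Members, gene lists, role classes and the rule for named genes were chosen with earlier results of these data known. Named genes are rab27a, rab27b, all rab3 members, every member past the threshold against wildtype at 2 dpf or in the interaction, the 2 members of each role class with the smallest p in double mutants, and companion genes past the threshold in a mutant. The gene name table matched 68 of 69 member identifiers. No sequences or coordinates are given.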

Additional observations from a re-analysis of the deposited data

How the results depend on the processing

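The counts of members called are given in the order double, tet3 and tet2 mutants and wildtype at 1.5 dpf, each against wildtype at 2 dpf, then the interaction, then double and tet3 mutants against wildtype at 1.5 dpf: 7, 5, 0, 13, 0, 8 and 1. The counts under other settings come without the share of all genes called in the same fit. A change in the members cannot be told there from one across all genes. Library weights, estimated by a method chosen after the data were seen, gave 21, 17, 0, 27, 1, 23 and 5. With hsp70l as a covariate they were 0, 0, 0, 0, 0, 5 and 0. Fits of only the groups compared gave 16 for tet3 mutants, and 2 and 0 for double and tet3 mutants against younger wildtype. DESeq2 gave 9 for tet3 mutants. Without both shallow tet3 libraries the count was 0 for tet3 mutants, and 5 and 0 against younger wildtype. In the last of these comparisons quantile normalization, edgeR and thinned reads gave 0, and matching names without regard to case gave 2. For double mutants against younger wildtype quantile normalization gave 3 and counting only GTPases gave 5. The causes of these differences were not tested. Some of the settings use fewer libraries or members. Leaving out 1 library gave 3 to 6, 0 to 2, 0 to 0, 5 to 15, 0 to 0, 3 to 11 and 0 to 1. The replicate block gave 6, 4, 0, 13, 0, 5 and 1; 6 of 30 pairs of libraries with the same number had correlated deviations over 0.1, and 4 of 15 libraries correlated best with their own number, so the numbers were not taken as a pairing. Over named genes, 695 values kept their direction and side of the threshold and 211 were no longer past it. The log2 change of rab27a, called nowhere, changed sign 6 times: in double mutants to 0.030 with library weights, 0.0086 without the first double mutant library (range with 1 library left out -0.33 to 0.0086) and 0.13 with hsp70l; in tet2 mutants to -0.11 without the first wildtype library and -0.095 without the second tet2 library (range -0.11 to 0.22); and at 1.5 dpf to -0.024 without the first wildtype library (range -0.024 to 0.35). Depth limits the low genes most: 1 read was worth a normalised count of 2.64 in the shallowest tet3 library and 0.490 in the deepest double mutant library.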
